A study of Mus musculus with 4 samples.

Results

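The glutathione transferases and sulfotransferases of the mouse colon were read on 4 microarrays from a study of azoxymethane (AOM), a carcinogen that gives rodents colon tumors, in mice with and without Pla2g3, the gene of a secreted phospholipase A2. Members were taken by gene name, as every gene on the array called Gst of the alpha, kappa, mu, omega, pi, theta or zeta class, Mgst or Sult, each followed by its number. This gave 40 of 30210 gene names, made up of 20 Gst genes, 3 Mgst genes and 17 Sult genes, with 62 probes between them.

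Each array held RNA pooled from the colons of male mice, aged 42 weeks, of the background strain B6.129 (n3). The pools were Pla2g3+/+ with saline as vehicle, Pla2g3-/- with vehicle, Pla2g3+/+ with AOM and Pla2g3-/- with AOM. AOM was given intraperitoneally at 10 mg/kg in 6 weekly injections, and colons were taken 28 weeks after the last one. The series' own description gives 3 to 5 mice per pool and calls the AOM tissue colorectal cancer. That label does not give the shares of tumor and surrounding colon on an array. The Pla2g3+/+ mice were littermates of the Pla2g3-/- mice, and the study's legend names the whole descending colon and a single number of mice per pool within that range. With 1 array per group the differences below have no replicate check, and no p-value is given.

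Glutathione transferases join glutathione to electrophiles such as epoxides and lipid peroxidation products, which makes them more soluble and ready for export. The soluble enzymes fall into classes named by Greek letters, whereas the Mgst enzymes sit in membranes and include relatives of leukotriene synthases. Sulfotransferases move a sulfate group from the donor PAPS onto phenols, catecholamines, steroids and bile acids. The intestinal epithelium carries out both reactions, and sulfation can also turn some procarcinogens into reactive esters.

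Close relatives in these families can be told apart only where a probe covers bases that differ, so aligning probes of the mu and pi classes are shown first. The values given later are those of the brightest probe, which is the one shown for Gstm3, Gstm7 and Gstp1 but not for Gstm6 and Gstp2. The mu probes below read matching stretches of 3 neighboring genes on chromosome 3 of mm9, at chr3:107769290-107770549 for Gstm3, chr3:107745052-107745111 for Gstm6 and chr3:107732073-107733247 for Gstm7. All 3 lie on the minus strand, and the first and last of these spans are longer than the 60 bases of the probe. Capitals mark bases that differ from the Gstm3 probe in the ungapped overlap.
Gstm3: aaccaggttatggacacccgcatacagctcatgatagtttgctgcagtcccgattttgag
Gstm6: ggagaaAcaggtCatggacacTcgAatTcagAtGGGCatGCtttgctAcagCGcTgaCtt
Gstm7: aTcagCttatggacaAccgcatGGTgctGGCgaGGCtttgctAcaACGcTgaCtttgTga

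Over 56 aligned bases the Gstm6 probe differed from the Gstm3 probe at 17, and over 59 aligned bases the Gstm7 probe differed at 19. The longest run of identical bases was 8 for Gstm6 and 9 for Gstm7. The Gstm6 probe shown gave a ratio of AOM over vehicle of -0.61 in Pla2g3+/+, as its brightest did. The pi probes lie at chr19:4035908-4036723 for Gstp1, a span longer than the probe, and at chr19:4040983-4041042 for Gstp2, both on the minus strand, and here capitals mark bases that differ from Gstp1.
Gstp1: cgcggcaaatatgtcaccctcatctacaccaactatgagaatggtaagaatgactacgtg
Gstp2: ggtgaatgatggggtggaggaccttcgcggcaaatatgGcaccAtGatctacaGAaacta

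The pi probes differed at 5 of 35 aligned bases and shared a run of 13, and shared signal between these genes was not tested. The Gstp2 probe shown gave -1.54 in that comparison, against -1.32 from its brightest. Among sulfotransferases, 1 probe is shown for each of the 2 genes with the lowest ratios after AOM in Pla2g3+/+, at chr7:133816657-133816716 for Sult1a1 and chr5:87985008-87985067 for Sult1d1, both on the minus strand of mm9. The Sult1d1 probe is the brightest of its gene, and the Sult1a1 probe is the other of a pair.
Sult1a1: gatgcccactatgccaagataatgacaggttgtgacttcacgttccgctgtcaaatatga
Sult1d1: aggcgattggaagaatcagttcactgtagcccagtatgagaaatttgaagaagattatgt

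Signals are given as multiples of the 75th percentile of their array, called relative signal, and a ratio between a pair of arrays is given as log2. A gene was read by its brightest probe, and the scanner software's own test decided whether a spot was well above background. Relative signals of different genes are not comparable with each other, because probes differ in brightness. The 75th percentile lay at intensities of 646 in Pla2g3+/+ and 650 in Pla2g3-/- with vehicle, and at 1309 and 1169 after AOM. The split thus follows treatment, and scaling by construction lowers every ratio of AOM over vehicle against the unscaled signals. Why the AOM arrays were brighter was not tested. Between 64.8% and 69.4% of spots were well above background, and no spot was saturated. Over probes printed 3 or more times on an array, the median SD between spots was 0.06 to 0.07 log2, which covers the spread within an array and not between mice. Pla2g3 itself went against the genotype labels. Its brightest probe was 1.23-fold higher in the pool labelled Pla2g3-/- with vehicle and 6.01-fold higher after AOM, and whether it lies in the deleted part is not given in the sources used here. The genotypes are therefore named as labelled throughout.

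Of the 40 genes, 28 were well above background on all 4 arrays. Sult1e1 and Sult5a1 were well above background on 3, missing only on Pla2g3+/+ with AOM, and Sult2a7 only on Pla2g3-/- with AOM. The other 9, Gstt4, Sult1c1, Sult2a1, Sult2a2, Sult2a3, Sult2a4, Sult2a6, Sult3a1 and Sult6b1, were not well above background on any array. Most of these belong to the Sult2a group, hydroxysteroid and bile acid sulfotransferases best known from liver, and the probes of Sult2a1 and Sult2a4 share a run of 36 bases.

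**Figure D1:**
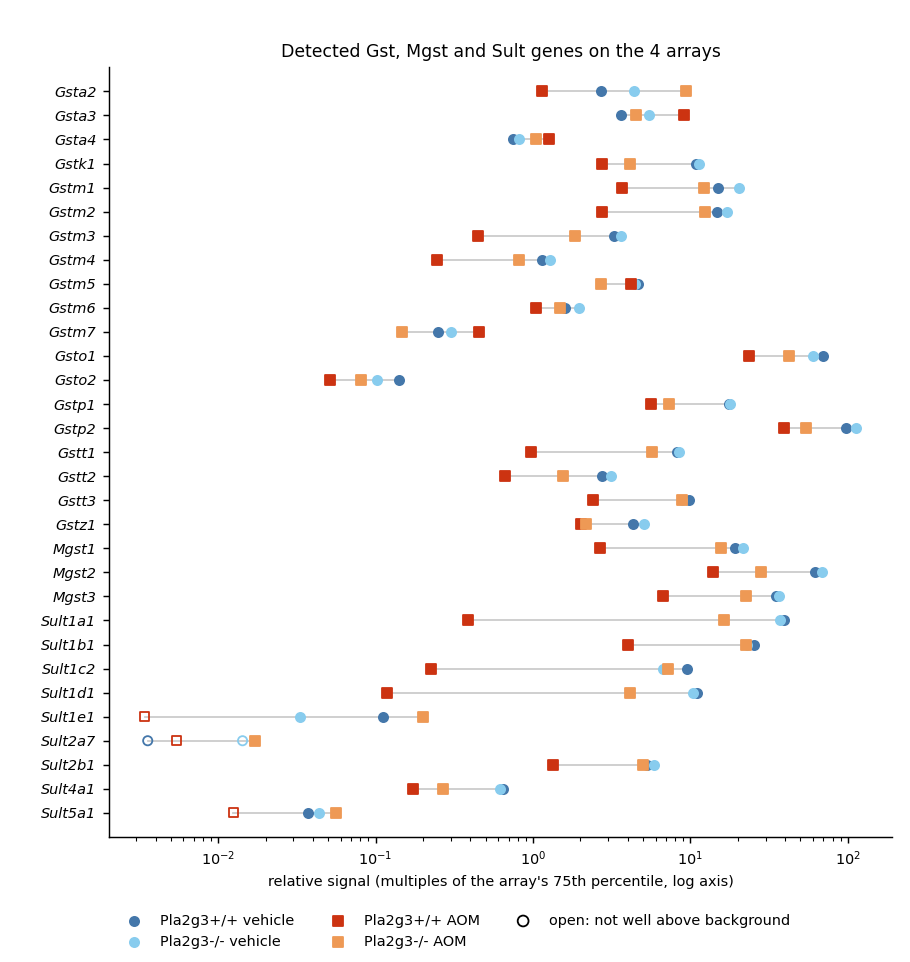
Relative signal of the 31 genes well above background on at least 1 array, on a log axis, with 1 point per array and open points where a spot was not well above background. On 26 of them the Pla2g3+/+ AOM array (dark red squares) is the lowest of the 4, with Sult1a1 at 0.386 against 39.1 with vehicle. The share of all genes with this pattern was not counted.

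In Pla2g3+/+ colon, most of these genes were lower after AOM than with vehicle. Of 30 genes with a ratio, 25 were past 2-fold lower, where 23.0% of all genes were, and 1 was past 2-fold higher, where 14.7% of all genes were. Without scaling between arrays, 15 were lower and 3 higher, where 6.76% and 43.5% of all genes were. The median log2 ratio was -2.01 over the members and -0.23 over all genes. By family this held for 14 of 19 Gst genes, 3 of 3 Mgst genes and 8 of 8 Sult genes. In bulk tissue, fewer cells of a type and less RNA per cell cannot be told apart.

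The lowest ratios were those of Sult1a1, Sult1d1 and Sult1c2, of the Sult1 group, which sulfates phenols and related amines. Sult1a1, the main phenol sulfotransferase, had a relative signal of 39.1 in Pla2g3+/+ and 37.0 in Pla2g3-/- with vehicle, and 0.386 and 16.2 after AOM. Its AOM over vehicle ratio was -6.66 in Pla2g3+/+, a 101-fold lower signal, and -1.19 in Pla2g3-/-. The probe printed above is not its brightest and gave -6.66 and -1.15.

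Sult1d1, which sulfates dopamine and other catecholamines, read 11.0, 10.3, 0.118 and 4.12 in the same order of arrays. Its ratio was -6.55 in Pla2g3+/+ and -1.33 in Pla2g3-/-, and its second probe gave -5.38 as a bound. Sult1c2, another phenol sulfotransferase, read 9.46, 6.70, 0.224 and 7.24. Here the Pla2g3+/+ AOM array alone was low, with a ratio of -5.40 against 0.11 in Pla2g3-/-.

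Sult1b1, which acts on thyroid hormone and small phenols, read 25.2, 22.9, 4.01 and 22.5, and its ratios were -2.65 and -0.03. Sult1e1, the estrogen sulfotransferase, read 0.111 and 0.0332 with vehicle. After AOM it was not well above background in Pla2g3+/+ and read 0.201 in Pla2g3-/-. It was thus at least 8.84-fold lower after AOM in Pla2g3+/+ and 6.05-fold higher in Pla2g3-/-. Under normexp with quantile normalization the Pla2g3+/+ ratio was -0.85 and not past 2-fold. The Pla2g3-/- log2 ratio ran from 1.16 to 3.44 over the alternatives. The lowest signal called well above background was 0.0228 on the Pla2g3-/- vehicle array.

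Sult2b1, which sulfates cholesterol and pregnenolone, read 5.32, 5.87, 1.33 and 4.98, with ratios of -1.998 in Pla2g3+/+ and -0.24 in Pla2g3-/-. Sult4a1, a brain-enriched member with no well-established substrate, read 0.643, 0.613, 0.172 and 0.266, and was lower in both genotypes at -1.91 and -1.20, although without scaling it was at -0.89 and -0.36. Without scaling Sult2b1 was at -0.98 in Pla2g3+/+. Sult5a1 read 0.0370 and 0.0437 with vehicle and 0.0560 in Pla2g3-/- after AOM, against a Pla2g3+/+ AOM signal not well above background, so it was at least 2.94-fold lower there. That call was lost with the mean over probes at -0.10, under normexp with quantile normalization at -0.24 and without scaling at -0.54.

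All 3 membrane-bound transferases were lower after AOM in Pla2g3+/+. Mgst1, which protects membranes of the endoplasmic reticulum and mitochondria from peroxides, read 19.2, 21.6, 2.66 and 15.7, and its ratios were -2.85 and -0.47. Mgst3 read 34.9, 36.6, 6.74 and 22.6, with ratios of -2.37 and -0.70. Mgst2, which can form a cysteinyl leukotriene, read 61.7, 68.6, 14.0 and 27.9, and was past 2-fold lower in both genotypes at -2.14 and -1.30.

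The theta class, which handles small halogenated compounds, was lower in all 3 of its detected members. Gstt1 read 8.26, 8.40, 0.968 and 5.67, with ratios of -3.09 and -0.57. Gstt3 read 9.80, 8.79, 2.42 and 8.79, so that the Pla2g3-/- arrays were level. Gstt2 read 2.74, 3.11, 0.664 and 1.54, and its ratios were -2.05 and -1.01.

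The mu class divided. Gstm1, a broad conjugating enzyme, read 14.9, 20.2, 3.66 and 12.2, with ratios of -2.03 in Pla2g3+/+ and -0.73 in Pla2g3-/-. Its brightest probe is annotated on chromosome 5 and its other probe on chromosome 3, where RefSeq places the gene, and the latter gave -2.25. Gstm2 read 14.8, 17.2, 2.75 and 12.3, with ratios of -2.43 and -0.48. Gstm3 read 3.27, 3.62, 0.444 and 1.86, with ratios of -2.88 and -0.96, and its second probe gave -4.14 and -1.43. Gstm4 read 1.14, 1.28, 0.246 and 0.815, with -2.21 and -0.65, against -1.18 and -0.93 from its second probe.

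The other 3 mu genes were not past 2-fold lower in Pla2g3+/+. Gstm5 read 4.62, 4.47, 4.20 and 2.71, and Gstm6 1.60, 1.96, 1.05 and 1.47. Gstm7 read 0.250, 0.300, 0.453 and 0.148, so that it was highest on the array on which Gstm3 was lowest, although the probes printed above read matching stretches of both genes. Its AOM over vehicle ratios were 0.86 and -1.02, and its second probe gave 1.04 and -0.60, on the other side of 2-fold in both genotypes.

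The alpha class also divided. Gsta2, which reduces fatty acid hydroperoxides, read 2.71 and 4.41 with vehicle and 1.15 and 9.39 after AOM. Its ratio was -1.24 in Pla2g3+/+ and 1.09 in Pla2g3-/-, so the direction after AOM was opposite in the genotypes, although without scaling the Pla2g3+/+ ratio was -0.22. Gsta3, known in mouse liver for conjugating the epoxide of aflatoxin, read 3.64, 5.47, 9.09 and 4.53. It was the only member past 2-fold higher after AOM in Pla2g3+/+, at 1.32, against -0.27 in Pla2g3-/-. Gsta4, which conjugates hydroxynonenal, read 0.743, 0.808, 1.27 and 1.04 and was past 2-fold in no comparison. Its probe was printed at 10 spots, whose SD on an array was 0.05 to 0.07 log2.

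The pi, kappa and zeta genes were past 2-fold lower after AOM in both genotypes with the scaling used here. Gstp1, the pi enzyme studied in many tumors, read 17.6, 17.9, 5.65 and 7.34, and Gstp2 97.8, 113, 39.2 and 53.8. Their ratios were -1.64 and -1.32 in Pla2g3+/+ and -1.29 and -1.07 in Pla2g3-/-. Gstk1, the kappa enzyme of mitochondria and peroxisomes, read 10.8, 11.4, 2.75 and 4.12, with ratios of -1.98 and -1.47. Gstz1, an isomerase of tyrosine breakdown, read 4.32, 5.06, 2.03 and 2.17, with ratios of -1.09 and -1.22. Quantile normalization took Gstp2 to -0.34 and -0.25, Gstp1 to -0.88 in Pla2g3-/- and Gstz1 to -0.90 in Pla2g3+/+. Without scaling none of these 4 genes was past 2-fold lower in either genotype, with Gstk1 at -0.96 and -0.62, Gstp1 at -0.62 and -0.44, Gstp2 at -0.30 and -0.22, and Gstz1 at -0.07 and -0.38.

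The omega class, which reduces dehydroascorbate and mixed disulfides, was past 2-fold lower in Pla2g3+/+ and within 2-fold in Pla2g3-/-. Gsto1 read 69.6, 60.2, 23.6 and 42.3, with ratios of -1.56 and -0.51. Gsto2 read 0.141, 0.102, 0.0515 and 0.0805, with ratios of -1.45 and -0.34. The Pla2g3+/+ calls were lost without scaling, at -0.54 for Gsto1 and -0.43 for Gsto2, and under normexp with quantile normalization, at -0.73 and -0.71. Whether the ratios of the genotypes differ was not tested for any gene.

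In Pla2g3-/- colon, fewer of these genes were past 2-fold after AOM. Of 30 genes with a ratio, 10 were lower, where 16.7% of all genes were, and 2 were higher, where 10.3% of all genes were. The lower count depended on the scaling. Under quantile normalization 5 were lower and 2 higher, where 12.5% and 11.47% of all genes were, and without scaling 0 were lower and 4 higher, where 4.40% and 36.8% of all genes were. Under quantile normalization the genes no longer past 2-fold lower were Sult1a1 at -0.65, Mgst2 at -0.66, Gstt2 at -0.89, Gstp1 at -0.88 and Gstp2 at -0.25. The median was -0.61 over the members and -0.13 over all genes, and over the alternatives that of the members ran from -0.64 to 0.28. Of the 25 genes lower in Pla2g3+/+, 9 were also lower in Pla2g3-/-, 14 stayed within 2-fold, and Gsta2 and Sult1e1 were higher. How all genes lower in Pla2g3+/+ divide in this way was not counted, so this division cannot be read as particular to the members.

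**Figure D2:**
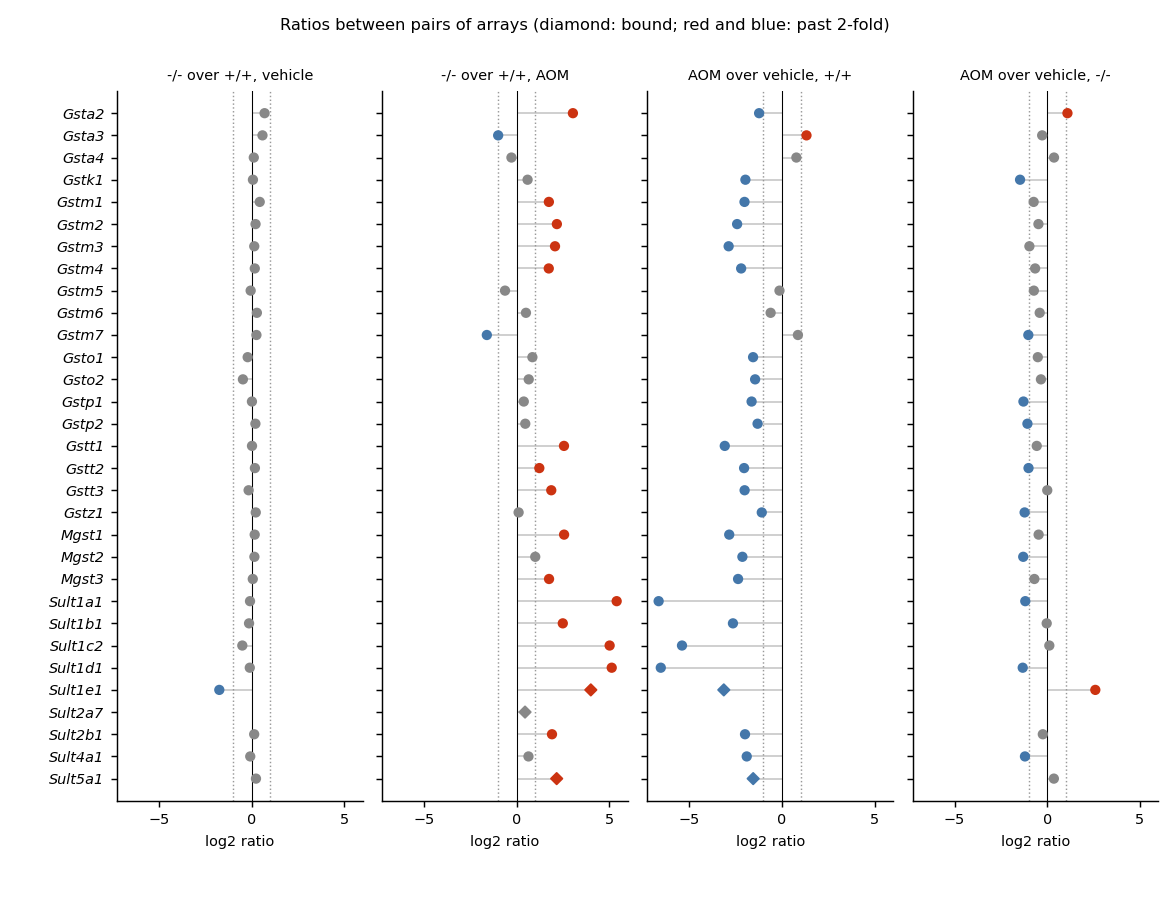
Log2 ratios of the 31 detected genes in each pair of arrays, with dotted lines at 2-fold and diamonds for bounds. In the third panel 25 of 30 ratios lie past 2-fold lower, against 10 of 30 in the fourth.

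Set against each other directly, the AOM pools differed by genotype label in most members. Of 31 genes with a ratio, 17 were past 2-fold higher in the pool labelled Pla2g3-/-, where 14.4% of all genes were, and 2 were lower, where 12.7% of all genes were. The median was 1.73 over the members and 0.02 over all genes. This comparison shares the Pla2g3+/+ AOM array with the treatment comparison above, so the counts are not independent of each other.

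The largest genotype ratios after AOM were those of Sult1a1 at 5.40, Sult1d1 at 5.13 and Sult1c2 at 5.02, which are 42.1-fold, 35.0-fold and 32.4-fold. Sult1e1 was at least 16.0-fold higher in the pool labelled Pla2g3-/- with the processing used here. Its log2 ratio ran from 1.35 to 5.88 over the alternatives. Gsta2 stood at 3.03, Mgst1 at 2.56, Gstt1 at 2.55, Sult1b1 at 2.49 and Gstm2 at 2.17. The genes past 2-fold lower were Gstm7 at -1.62 and Gsta3 at -1.01, and the second probe of Gsta3 gave -0.89. Among the 17 higher genes, Gstm4 was at 1.73 but at 0.41 on its second probe. Sult5a1, at least 4.45-fold higher, was at 0.81 with the mean over probes and 0.49 under normexp with quantile normalization. Mgst2 lay just outside 2-fold.

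With vehicle the genotypes were close. Of 30 genes with a ratio, 0 were past 2-fold higher in the pool labelled Pla2g3-/-, where 2.23% of all genes were, and 1 was lower, where 1.55% of all genes were. That gene was Sult1e1 at -1.74, which under normexp with quantile normalization was -0.66, so that 0 were lower. The median was 0.13 over the members and -0.03 over all genes, and the next genes were Gsta2 at 0.70 and Gsta3 at 0.59.

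**Figure D3:**
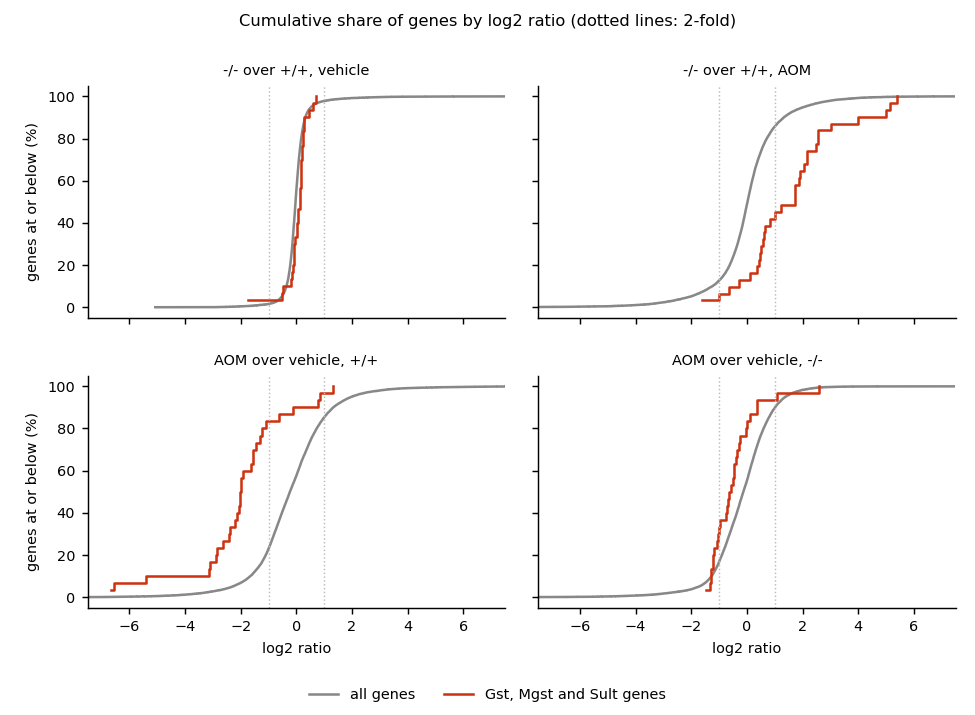
Cumulative percent of genes by log2 ratio for all genes with a ratio (grey) and for the Gst, Mgst and Sult genes (red), with dotted lines at 2-fold. The curves lie close together with vehicle, and the red curve has its median at -2.01 after AOM in Pla2g3+/+ and at 1.73 between the genotypes after AOM.

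Repeated probes of a gene gave similar ratios in most cases. The median absolute difference between a gene's other probes and its brightest was 0.05 to 0.12 log2 over the 4 comparisons, and the largest was 1.36. After AOM in Pla2g3+/+ the other probe lay on the other side of 2-fold for Gstm7 and Sult4a1 among 17 probes, and 0 had the opposite sign. In Pla2g3-/- this held for Gstm3 and Gstm7 among 17, and 1 Gstm6 probe had the opposite sign. Between the genotypes after AOM it held for Gsta3, Gstm4 and Gstm6 among 16 probes, and 0 had the opposite sign. With vehicle, where ratios were near 0, 6 of 17 had the opposite sign and 0 lay on the other side of 2-fold.

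**Figure D4:**
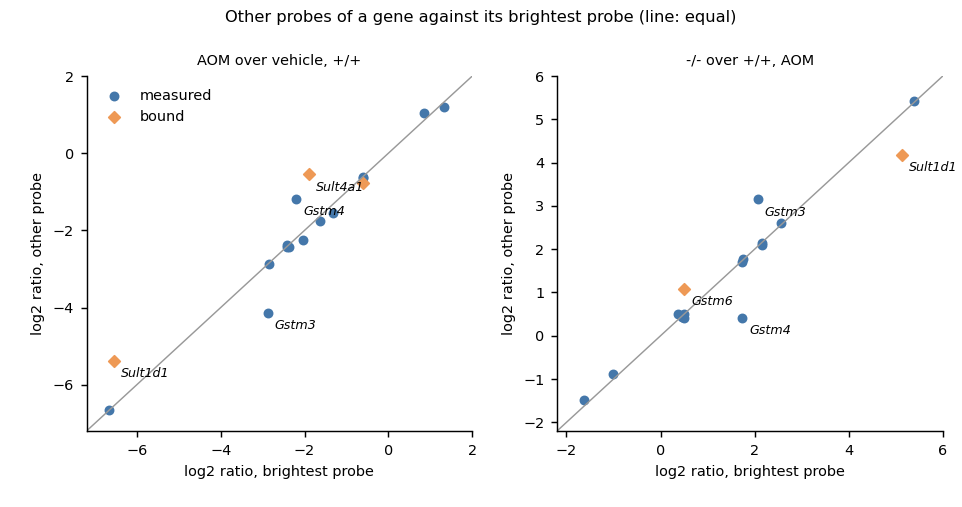
Log2 ratio of each other probe against the brightest probe of the same gene, for AOM over vehicle in Pla2g3+/+ (left) and between the genotypes after AOM (right), with a line of equality and diamonds for bounds. On the left, Sult4a1 at -0.55 against -1.91, Gstm3 at -4.14 against -2.88, Sult1d1 at -5.38 against -6.55 and Gstm4 at -1.18 against -2.21 lie farthest from the line, and the Sult4a1 and Sult1d1 points are bounds.

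Most genes of a list drawn up for sulfate supply and PAPS synthesis were lower after AOM in Pla2g3+/+ with the scaling used here. Not every gene of the list makes PAPS or carries sulfate, and Papss1 and Papss2 are its only PAPS synthases. After AOM in Pla2g3+/+, 8 of 10 genes of this list with a ratio were past 2-fold lower, where 23.0% of all genes were, and 0 higher. The median was -1.19. Slc26a3, a chloride and bicarbonate exchanger of the colon surface, stood at -6.16, the sulfate transporter Slc13a1 at -5.41 and the sulfate transporter Slc26a2 at -3.26. Papss1, a PAPS synthase, stood at -1.22, and its relative Papss2 at -0.88. Like Papss1, Slc35b3 at -1.28, Bpnt1 at -1.16, Slc26a1 at -1.09 and Impad1 at -1.04 were little past 2-fold. The alternative scalings were not run on this or the other lists. In Pla2g3-/- after AOM, 3 of 10 were lower and 1 higher, where 16.7% and 10.3% of all genes were. Between the AOM pools, 5 were higher in the pool labelled Pla2g3-/-, where 14.4% of all genes were, and 0 lower. Slc26a3 stood at 7.59 and Slc26a2 at 3.69. Of 6 sulfatases, which remove sulfate, 1 was past 2-fold higher and 0 lower after AOM in Pla2g3+/+, where 14.7% and 23.0% of all genes were.

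Genes of glutathione synthesis and recycling were mostly within 2-fold. Of 9 genes, 1 was past 2-fold higher and 0 lower after AOM in Pla2g3+/+, where 14.7% and 23.0% of all genes were. The median was -0.20. The 1 gene was Slc7a11, the cystine importer, which was not well above background with vehicle and read 0.427 after AOM, a log2 bound of 4.69. Gclc, the catalytic subunit of the rate-limiting ligase, stood at -0.05.

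The steps after conjugation were mixed after AOM in Pla2g3+/+, where 14.7% of all genes were past 2-fold higher and 23.0% lower. In the mercapturate pathway, which trims glutathione conjugates, 2 of 9 genes were past 2-fold higher and 5 lower, with the dipeptidase Dpep1 at -4.97, the glutamyltransferase Ggt1 at -2.03 and its relative Ggt5 at 2.06. Of 9 export pumps, 3 were higher and 4 lower. Abcc2 and Abcc4 stood at 3.94 and 3.75, and Abcb1a, Abcg2 and Abcc6 at -2.60, -2.39 and -2.23.

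The regulators gave different counts after AOM in Pla2g3+/+, where 14.7% of all genes were past 2-fold higher and 23.0% lower. Of 11 nuclear receptors and epithelial factors, 1 was past 2-fold higher and 5 lower, with Ppara at -3.74, Cdx2 at -3.59 and Vdr at -3.43, against Ahr, the dioxin receptor, at 1.52. Of 13 genes of the NRF2 pathway, which controls many transferases, 3 were higher and 3 lower, and the median was -0.18. The lower count is near the share of all genes. Hmox1, heme oxygenase, stood at 3.84, Cbr3 at -3.65 and Nqo1 at -1.51.

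**Figure D5:**
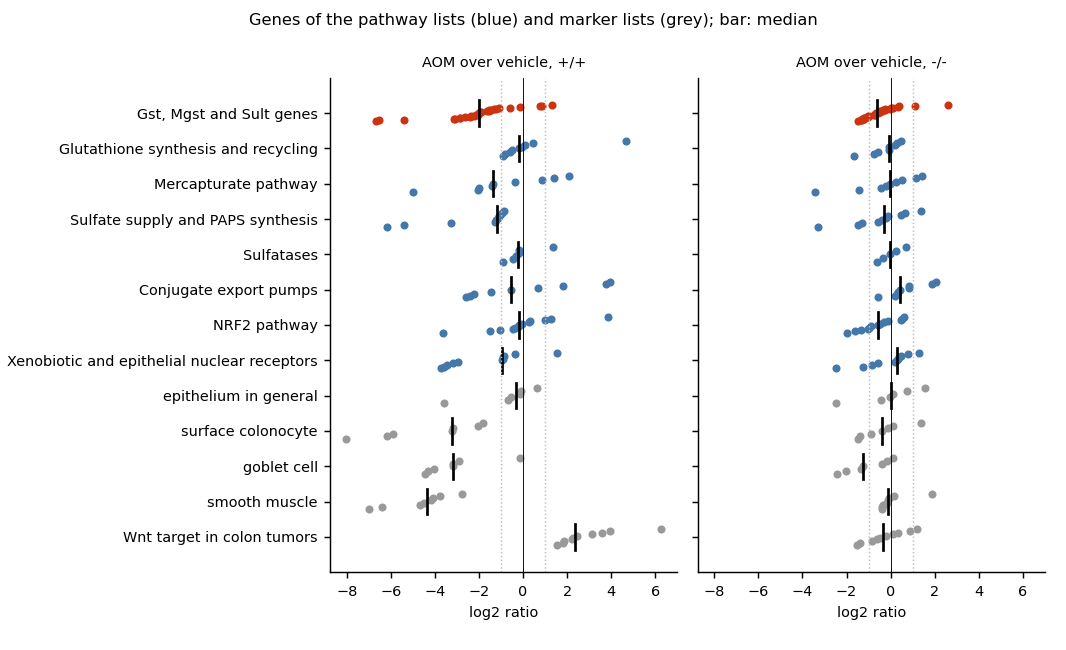
Log2 ratios of AOM over vehicle for the genes of each list in Pla2g3+/+ (left) and Pla2g3-/- (right), with 1 point per gene, a bar at the median and dotted lines at 2-fold. The members have a median of -2.01 on the left, beside -3.22 for the surface colonocyte list and 2.36 for the Wnt target list.

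Several cell type lists moved with the members after AOM in Pla2g3+/+, where 14.7% of all genes were past 2-fold higher and 23.0% lower. Of 7 surface colonocyte genes with a ratio, 7 were past 2-fold lower after AOM in Pla2g3+/+, with a median of -3.22, and their summed relative signal was 676 and 714 with vehicle and 51.2 and 373 after AOM. Goblet cell genes were lower in 6 of 7, with sums of 1245, 1186, 161 and 543. Smooth muscle genes were lower in 8 of 8, with sums of 646, 684, 40.2 and 620. The list for epithelium in general was lower in 1 of 6, Cdx2, and its sums were 355, 354, 264 and 342. A sum follows the brightest probes of its list, here Krt8 at 200 and Krt18 at 109 on the Pla2g3+/+ vehicle array. Wnt targets of colon tumors were higher in 10 of 10, with sums of 10.2, 10.2, 70.7 and 9.01. Between the AOM pools, 7 colonocyte, 6 goblet and 8 smooth muscle genes were higher in the pool labelled Pla2g3-/-, where 14.4% of all genes were. Slc26a3 and Cdx2 stand in both a pathway list and a cell type list. The part of these cell types in the ratios of the members was not tested.

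The other lists gave the following counts. Of all genes, 14.7% were past 2-fold higher and 23.0% lower after AOM in Pla2g3+/+, and 10.3% and 16.7% in Pla2g3-/-. Adipocyte genes were lower in 5 of 6 after AOM in Pla2g3+/+ and in 5 of 5 in Pla2g3-/-. With vehicle their median between genotypes was 0.84, and their sums were 16.7, 35.8, 2.10 and 5.16 over the 4 arrays. Cfd alone read 19.2 on the Pla2g3-/- vehicle array. Sult1e1 is also known from adipose tissue, and the part of adipocytes in its ratios was not tested. Pancreatic acinar genes were past 2-fold higher in 8 of 8 in the pool labelled Pla2g3-/- with vehicle, and hepatocyte genes in 5 of 8. Of all genes, 2.23% were higher there. The acinar sums were 0.382, 43.4, 0.168 and 0.189, and Amy2a5 alone read 34.7 on the Pla2g3-/- vehicle array. Mast cell genes were higher in 6 of 7 after AOM in Pla2g3+/+, neutrophil genes in 5 of 8, fibroblast genes in 4 of 6 and macrophage genes in 4 of 5. Paneth cell genes were higher in 4 of 5, and enterocyte genes of the small intestine were lower in 4 of 6. B and T cell genes were lower in 3 of 7. Squamous genes were higher in 2 and lower in 2 of 6 in Pla2g3+/+. In Pla2g3-/- after AOM, 2 of 5 squamous genes were higher and 1 lower than with vehicle, and 2 were within 2-fold. The higher genes were the keratins Krt5, at 297-fold, and Krt14, at 36.4-fold. Krt14 was also 13.8-fold higher in Pla2g3+/+. The sums of the list were 5.20, 4.82, 6.16 and 23.0, and Krt5 alone read 15.3 on the Pla2g3-/- AOM array. The part of these lists in the results was not tested either.

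Promoters were read from RefSeq, on GRCm38.p6, as 300-base windows from 250 bases before to 50 after a gene's start. Of the members, 34 had 1 or more, with 45 windows between them. The core of the antioxidant response element, which NRF2 binds, is TGACNNNGC on either strand. It occurred in 12.4% of all 32851 windows and in 4 of the 45 member windows, those of Gsta3, Gstm5, Gstm7 and Mgst1. The stretch of Gstm7, whose ratio after AOM in Pla2g3+/+ was 0.86, overlaps the annotated gene and is not shown. Stretches of 60 bases that end before the start are shown for the other 3. Their ratios after AOM in Pla2g3+/+ ran from 1.32 for Gsta3 through -0.14 for Gstm5 to -2.85 for Mgst1. They lie at chr1:21240439-21240498, chr3:107895787-107895846 and chr6:138140446-138140505, all on the plus strand, and capitals mark the match, which is on the opposite strand in Mgst1.
Gsta3: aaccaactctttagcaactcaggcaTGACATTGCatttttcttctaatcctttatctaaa
Gstm5: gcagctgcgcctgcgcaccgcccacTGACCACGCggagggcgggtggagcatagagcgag
Mgst1: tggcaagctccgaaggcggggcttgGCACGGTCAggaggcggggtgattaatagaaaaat

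The core bound by the dioxin receptor, GCGTG, occurred in 32.4% of all windows and in 10 of the 45 member windows. These belong to 8 members, among them Gsta2, Sult1b1 and Sult1d1. A TATA box, TATAAA, was in 13.6% of all windows and 8 member windows, and a GC box, GGGCGG, in 35.7% and 17. The letters TTTATGG of caudal factors were in 2.75% and 1 member window, CAAAGTCCA of HNF4 in 0.475% and 1, and CTTTGATC of TCF factors in 0.938% and 0. A site for HNF1 was in 0.399% of all windows and 4 member windows, and a direct repeat of receptors in 0.0396% and 0. The HNF1 windows were those of Sult1d1, Sult2a3, Sult2a4 and Sult2a6, of which only Sult1d1 was well above background on any array. All were searched on both strands, and overlaps between motifs were allowed.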

How the data were processed

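RNA from 4 pools, 27.7 ng each, was labelled with Cy3 and hybridized to 1 array per group on 1 slide, and groups were taken from the deposited labels. The authors deposited a processed intensity per spot, made with Agilent Feature Extraction (version 11.5.1.1). According to the deposited headers, local background was removed and spatial trends were corrected, with no step between arrays. The deposited p-value of a spot is that software's test against background, and its detection call was taken unchanged. The deposited table is a ratio of that intensity to the 75th percentile of its array, which was checked on each array. No other column of values per sample was left unused (0).

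Here control and outlier spots were left out, log2 intensities of replicate spots were averaged to 39429 probes, and the 75th percentile of each array was subtracted. A gene was read by its brightest probe. A ratio is a difference between 2 arrays, called past 2-fold, the study's threshold. Where 1 side was not well above background, it was set to the higher of its own signal and the lowest signal well above background on that array, and the ratio is a bound. The number of arrays limits the precision. The members, lists and threshold were chosen with earlier results of these data known. Values on each array are given for members past 2-fold in at least 1 comparison and for the 3 brightest of each family. Gsta4, Gstm5 and Gstm6 are outside this rule and were added to complete their classes after their values were seen. Other genes come from 7 pathway and 16 cell type lists. All 40 names are RefSeq symbols, and the accession of each brightest probe leads to the same symbol. Probe coordinates are those of the files, on mm9. Alternatives were no scaling, the median, quantile normalization, normexp with an offset of 50 and quantile normalization (limma 3.58.1, R 4.3.3), the mean over probes, 2 settings for dim probes, the deposited table and thresholds of 1.5-fold and 4-fold. Scripts used Python 3.11.15, pandas 2.3.3 and numpy 2.4.6 and were tested on simulated data.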

Additional observations from a re-analysis of the deposited data

Results flagged for a closer look

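Gsta2 and Sult1e1 moved in opposite directions after AOM in the genotypes, and with 1 array per group the difference was not tested. The log2 ratio of AOM over vehicle was -1.24 in Pla2g3+/+ and 1.09 in Pla2g3-/- for Gsta2, and at most -3.14 and 2.60 for Sult1e1. Sult1e1 also differed in direction between treatments, at -1.74 for Pla2g3-/- over Pla2g3+/+ with vehicle and at least 3.9996 after AOM. The Sult1e1 signal on Pla2g3+/+ with AOM was not well above background, so both ratios that use it are bounds. They are bounds for the main processing only. Over the alternatives the genotype ratio after AOM was as low as 1.35, and the Pla2g3+/+ ratio was -0.85 under normexp with quantile normalization.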

How the results depend on the processing

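No ratio of a member changed sign past 2-fold under any alternative run. Within 2-fold signs did change, as for Gstm1 after AOM in Pla2g3-/-, from -0.73 to as high as 0.11. Without scaling, the median over all genes of AOM over vehicle moved from -0.23 to 0.82 in Pla2g3+/+ and from -0.13 to 0.71 in Pla2g3-/-, and all-gene calls there became 43.5% higher and 6.76% lower in Pla2g3+/+ and 36.8% and 4.40% in Pla2g3-/-. The members then counted 3 higher and 15 lower with a median of -0.99 in Pla2g3+/+, and 4 higher and 0 lower in Pla2g3-/-. Over all alternatives the Pla2g3-/- median of the members ran from -0.64 to 0.28, so its sign depended on the processing. Lower members after AOM in Pla2g3-/- numbered 5 under quantile normalization and 2 under normexp with quantile normalization, where 12.5% and 5.48% of all genes were. Normexp left 0 lower between genotypes with vehicle, where 0.533% of all genes were, with Sult1e1 at -0.66. Under normexp, Sult1e1 after AOM in Pla2g3+/+ was -0.85. Members lower in the pool labelled Pla2g3-/- after AOM numbered 1 when scaled by the median and 1 with the mean over probes, Gsta3 falling out. Of all genes, 11.7% and 12.3% were lower there. With no filter on dim probes, members higher between genotypes numbered 2 with vehicle, where 3.35% of all genes were. The median after AOM was then 0.74 over the members and 0.20 over all genes. At 1.5-fold, 2 were higher between genotypes with vehicle, where 4.39% of all genes were. After AOM, 21 were higher and 3 lower between genotypes, where 23.5% and 21.0% of all genes were. In Pla2g3+/+ after AOM, 3 were higher and 26 lower at 1.5-fold, where 23.5% and 37.6% of all genes were. The Pla2g3-/- counts were 2 higher and 15 lower, beside 20.5% and 31.4%. At 4-fold, 0 were lower between genotypes with vehicle, where 0.425% of all genes were. After AOM, 11 were higher and 0 lower between genotypes, where 5.24% and 5.17% of all genes were. In Pla2g3+/+ after AOM, 0 were higher and 15 lower at 4-fold, where 4.86% and 6.81% of all genes were. In Pla2g3-/- after AOM, 1 was higher and 0 lower, where 1.70% and 3.77% of all genes were. In Pla2g3+/+, quantile normalization took Gsto1 to -0.73, Gstp2 to -0.34 and Gstz1 to -0.90. The cause of these moves was not tested beyond what each setting changes by construction. No paired analysis was possible because the labels give no replicate numbers and each group has 1 array. Dim signals such as those of Sult1e1, Sult5a1 and Gsto2 limit what can be read from their ratios.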
